A study of Mus musculus with 8 samples.

Results

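The activity-induced immediate early genes are transcripts that neurons make within minutes to hours of firing. A list of 40 such genes was read by symbol from the count tables of mouse prefrontal cortex, and all 40 were found among the 24420 genes of the tables. They were divided by role into 17 fast transcription factors, 16 intracellular regulators and 7 synaptic and secreted effectors. The libraries came from 3 groups of male mice. The romidepsin group (2 libraries) carried the heterozygous Shank3+/ΔC genotype, in which 1 copy of Shank3 lacks exon 21 and with it the C-terminal end of the protein. These mice received romidepsin, a histone deacetylase inhibitor, at 0.25 mg/kg into the peritoneum once a day for 3 days and were killed 1 day later. The saline group (3 libraries) had the same genotype and received saline. The wild-type group (3 libraries) consisted of age-matched littermates, for which the labels name no treatment. Saline treatment and genotype therefore cannot be told apart in saline against wild type. In romidepsin against wild type, the drug, its injection and the genotype likewise cannot be told apart. The sample labels give an age of 5 to 6 weeks and the series description 5 to 8 weeks. The mutants are from 1 line. It is not stated that libraries are separate animals, so p-values here reflect only how far these libraries spread.

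When a cortical neuron fires, calcium entering through synaptic receptors and voltage-gated channels activates kinases that phosphorylate factors already bound at promoters, such as CREB and the serum response factor complex. The first wave of transcripts needs no new protein and encodes mostly transcription factors of the AP-1, Egr and Nr4a families, with phosphatases and other proteins that switch the signal off. The effectors act at the synapse or outside the cell, and are part of how activity alters synaptic strength.

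Reads on genes numbered 7783537 to 15156318 per library, and the 40 genes together took 0.257% to 0.305% of them. All 40 passed the filter on low counts that left 14809 genes for testing. The labels give the cell type as neurons and the tissue as prefrontal cortical slices. Summed levels of 8 neuronal markers were 7872 to 8049 CPM (counts scaled to a common library total) in the romidepsin libraries, 7232 to 8100 CPM in the saline libraries and 6698 to 8609 CPM in the wild-type libraries. Markers of astrocytes, oligodendrocytes, microglia and vessel cells were also read in every library, so the tissue held cells other than neurons, several of which also make immediate early transcripts. In such bulk tissue, fewer cells making a transcript and less of it per cell cannot be told apart. Whole-gene counts of Shank3 include the exons that the mutant copy keeps and do not check the genotype.

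Promoter sequences were read for motifs of elements through which such genes can be switched on. Whether any match acts in its gene was not tested. The RefSeq promoter table for GRCm38.p6 held 30 of the 40 genes, and the 250 bases before the first listed start of each were searched on both strands. It had no entry for Arc, Dusp4, Egr1, Egr3, Ier2, Klf10, Nptx2, Sik1, Trib1 and Vgf. The sequences of 5 of the genes that came nearest to a difference between groups are shown, on their gene's strand from 5′ to 3′. Bases inside an annotated exon of the gene were left off, 47 for Dusp1 and 18 for Gadd45b. Capitals mark matches to the cAMP response element (CRE) TGACGTCA, to its short form TGACG, and to the EGR motif GCGNGGGCG. Fosb, whose window is reached by an annotated transcript, and Egr2, with several listed starts, are not shown. The listed start of Nr4a1 lies inside the longest annotated extent of that gene.
Fos (chr12:85473640-85473889, plus strand): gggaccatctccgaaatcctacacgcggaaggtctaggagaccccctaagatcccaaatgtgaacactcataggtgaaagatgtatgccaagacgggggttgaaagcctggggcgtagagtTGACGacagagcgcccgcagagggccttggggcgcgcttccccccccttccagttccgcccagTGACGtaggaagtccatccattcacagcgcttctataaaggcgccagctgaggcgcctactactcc
Nr4a1 (chr15:101266596-101266845, plus strand): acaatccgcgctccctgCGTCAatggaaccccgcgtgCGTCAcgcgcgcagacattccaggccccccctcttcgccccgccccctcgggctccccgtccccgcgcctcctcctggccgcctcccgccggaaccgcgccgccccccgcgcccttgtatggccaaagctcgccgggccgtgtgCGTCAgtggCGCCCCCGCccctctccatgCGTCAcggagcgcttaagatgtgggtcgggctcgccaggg
Nr4a2 (chr2:57124004-57124253, minus strand): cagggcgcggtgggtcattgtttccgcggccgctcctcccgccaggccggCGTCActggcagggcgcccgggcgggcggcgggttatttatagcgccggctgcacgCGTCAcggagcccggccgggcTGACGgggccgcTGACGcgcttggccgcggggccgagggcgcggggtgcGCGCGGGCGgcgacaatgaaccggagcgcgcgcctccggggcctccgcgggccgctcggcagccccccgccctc
Dusp1 (chr17:26508520-26508722, minus strand): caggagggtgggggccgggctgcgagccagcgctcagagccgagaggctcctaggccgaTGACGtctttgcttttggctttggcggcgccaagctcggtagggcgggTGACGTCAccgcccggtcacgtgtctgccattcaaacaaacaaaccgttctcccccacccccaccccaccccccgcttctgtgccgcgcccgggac
Gadd45b (chr10:80929841-80930072, plus strand): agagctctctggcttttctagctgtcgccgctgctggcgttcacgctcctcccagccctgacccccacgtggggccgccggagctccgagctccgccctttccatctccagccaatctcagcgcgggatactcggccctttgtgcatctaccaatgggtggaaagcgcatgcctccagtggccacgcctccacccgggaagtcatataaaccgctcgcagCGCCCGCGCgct

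The short CRE occurred in 60% of the 30 promoters (18 genes), against 17.9% of all 27025 promoters of the same length. It was present 2 times in the Fos window, at 129 and 66 bases before the start, and 4 times each in those of Nr4a1 and Nr4a2. The full palindrome TGACGTCA, which contains the short form on both strands, was found in 4 genes, Btg2, Dusp1, Plk2 and Ppp1r15a (13.3%, against 1.62% of all promoters). In Dusp1 it began 143 bases before the start. The EGR motif occurred in 7 genes (23.3%, against 4.65%), among them Nr4a1, Nr4a2, Fosb and Gadd45b. The CArG box, the serum response factor site, had 1 gene, Dusp5 (3.33%, against 1.4%), with 2 neighbouring copies. TATAAA was present in 6 genes (20%, against 13%), Fos and Gadd45b included, and is not in capitals. The AP-1 motif TGANTCA (6.87% of all promoters) and the NBRE motif AAAGGTCA (1.31%), which NR4A proteins bind, had no match in the 30 windows. These letters describe the windows only, and enhancers lay outside the search. Matches were counted over the full windows, with no annotated exon left off. Some, such as those of Fosb and Nr4a1, therefore lie inside the annotated extent of their gene. The map of motif matches sets the genes side by side.

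**Figure D1:**
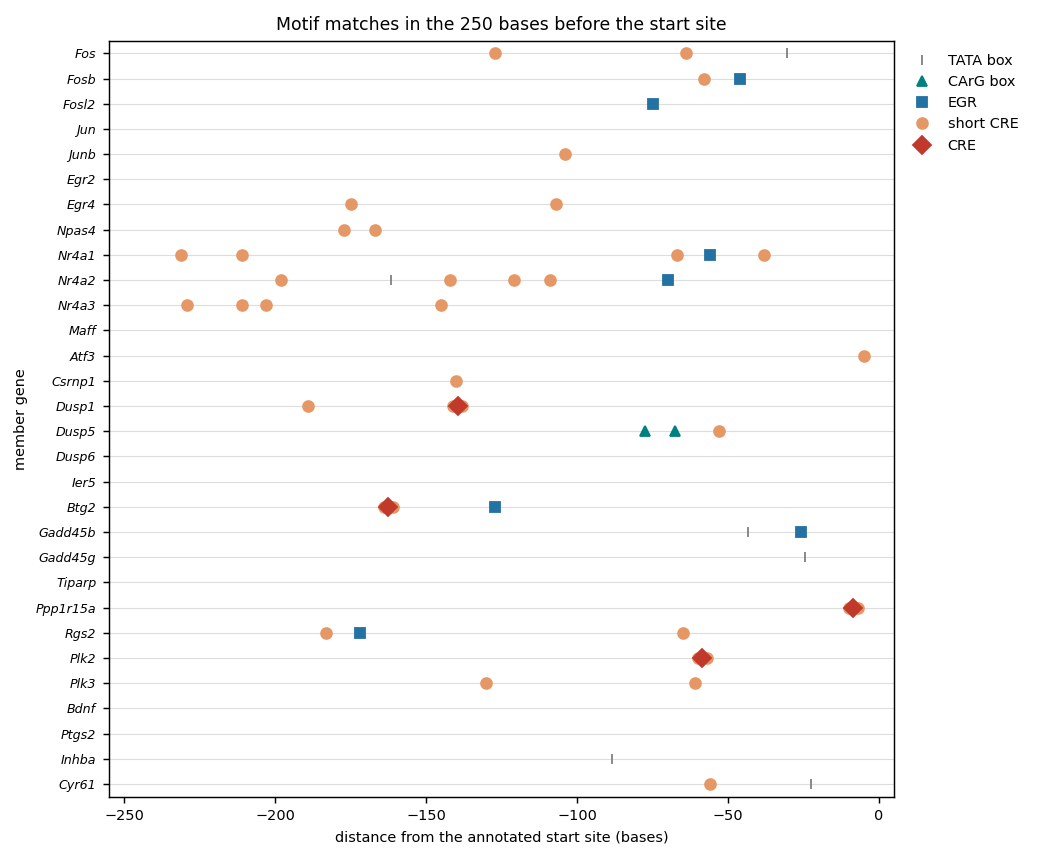
Motif matches by distance, in bases, from the annotated start site (x axis) in the promoters of the 30 genes with a sequence (y axis); each symbol is 1 match on either strand. Short CRE matches were found in 18 of the 30 genes and the full CRE in 4, drawn over the short matches it contains.

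Levels per kilobase of exon differed widely between the 40 genes. In the wild-type libraries Arc, the synaptic protein that removes glutamate receptors from the membrane, was the most abundant at 143 ± 11.2 CPM per kilobase (SD, n = 3). The neuropeptide precursor Vgf followed at 85.3 ± 14.5, and the zinc finger factors Egr1 and Egr3 at 77.9 ± 13.1 and 72.3 ± 16.5. These 3 neighbours in the order did not differ beyond their spread. Polo-like kinase Plk2, which weakens overactive synapses, stood at 63.0 ± 3.04 and the nuclear receptor Nr4a1 at 46.4 ± 5.10 on the same scale. Lowest were Inhba, a subunit of the secreted factor activin, at 0.809 ± 0.228, and the bZIP factors Maff at 0.701 ± 0.327 and Atf3 at 0.242 ± 0.181. Atf3 had 0 and 10 reads in the romidepsin libraries, 4, 11 and 4 reads in the saline libraries and 2, 6 and 12 reads in the wild-type libraries. A count of 0 at that depth allows up to 0.296 CPM, so no difference in Atf3 was detectable here. On the scale of CPM, 7 of the 40 genes averaged at least 100 and 5 less than 10. Part of the exons of Bdnf (14.4% of bases) and Dusp5 (22.1%) overlaps a gene on the opposite strand, and their counts are uncertain to that extent.

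The AP-1 factors differed among themselves. Fos read at 41.2 and 40.2 CPM in the romidepsin libraries, 47.0, 71.3 and 64.5 CPM in the saline libraries and 47.6, 38.9 and 43.0 CPM in the wild-type libraries. Saline replicates 2 and 3 were the highest, saline replicate 1 lay just under the highest wild-type library, and the romidepsin libraries lay below all saline libraries. Fosb, a dimer partner of the JUN proteins whose truncated form accumulates with repeated stimulation, did not share that pattern. It stood at 19.4 and 24.1 CPM under romidepsin, 26.4, 30.4 and 28.7 CPM under saline and 35.4, 27.6 and 28.8 CPM in wild type. Both romidepsin libraries were below all 6 others, while saline and wild type overlapped. Junb had 77.0 and 67.7 CPM in the romidepsin libraries, 70.8, 110.0 and 95.0 CPM in the saline libraries and 73.6, 52.6 and 68.4 CPM in the wild-type libraries. Its 2 highest values were again saline replicates 2 and 3. Fosl2 had 59.2 and 69.2 CPM in the romidepsin libraries, 72.7, 64.4 and 69.3 CPM in the saline libraries and 65.9, 63.0 and 69.1 CPM in the wild-type libraries. Jun had 54.7 and 55.4 CPM under romidepsin, 58.6, 69.3 and 53.4 CPM under saline and 60.5, 44.0 and 69.5 CPM in wild type. Neither separated any pair of groups.

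Within the Egr family of zinc finger factors, Egr1 had 356 and 364 CPM in the romidepsin libraries, 334, 428 and 431 CPM in the saline libraries and 403, 359 and 286 CPM in the wild-type libraries. All groups overlapped. Egr2, which also controls myelination in peripheral nerve, had 19.0 and 21.7 CPM under romidepsin, 19.2, 26.7 and 30.0 CPM under saline and 19.6, 16.8 and 18.4 CPM in wild type. Here too saline replicates 2 and 3 were the highest and saline replicate 1 lay among the wild-type values. Egr3 stood at 243 and 242 CPM in the romidepsin libraries, 229, 245 and 237 CPM in the saline libraries and 344, 327 and 219 CPM in the wild-type libraries. The 5 mutant libraries lay close together, below wild-type replicates 1 and 2 and above wild-type replicate 3. Egr4 had 45.2 and 45.8 CPM in the romidepsin libraries, 49.7, 46.8 and 52.7 CPM in the saline libraries and 51.7, 40.5 and 43.3 CPM in the wild-type libraries. Its romidepsin libraries lay just below all saline libraries, and wild type overlapped both.

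Nr4a1, an orphan nuclear receptor known to lower spine density in excitatory neurons, had 129 and 135 CPM in the romidepsin libraries, 142, 183 and 181 CPM in the saline libraries and 139, 121 and 112 CPM in the wild-type libraries. The saline libraries were above all others. Nr4a2 had 13.6 and 16.5 CPM under romidepsin, 18.1, 18.4 and 19.1 CPM under saline and 16.6, 16.6 and 29.6 CPM in wild type. Both romidepsin libraries were the lowest of the 8, by a narrow margin for replicate 2, and wild-type replicate 3 stood apart on the high side. Nr4a3 had 74.8 and 78.5 CPM in the romidepsin libraries, 82.3, 78.9 and 82.3 CPM in the saline libraries and 77.7, 73.6 and 73.4 CPM in the wild-type libraries. Its groups were separated between saline and either of the others, though by little.

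Among the intracellular regulators, the salt-inducible kinase Sik1, which restrains CREB coactivators, had 21.9 and 22.6 CPM in the romidepsin libraries, 20.4, 22.8 and 27.8 CPM in the saline libraries and 16.6, 14.5 and 17.2 CPM in the wild-type libraries. All 5 mutant libraries exceeded all 3 wild-type libraries. Dusp1, a nuclear phosphatase that inactivates MAP kinases, had 39.3 and 38.2 CPM under romidepsin, 37.9, 59.0 and 51.3 CPM under saline and 34.3, 35.1 and 32.6 CPM in wild type, again with the 5 mutant libraries above wild type. Dusp4, a related nuclear phosphatase, stood at 9.85 and 9.67 CPM in the romidepsin libraries, 8.85, 9.74 and 8.34 CPM in the saline libraries and 11.5, 12.1 and 10.5 CPM in the wild-type libraries. The 5 mutant libraries were the lowest 5 of the 8. Such a separation of all mutant from all wild-type libraries held for 2 members on the higher side (5%) and 1 on the lower side (2.5%), against 2.48% of the 14809 genes on each side.

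Gadd45b, a stress protein linked to DNA demethylation at activity-regulated promoters, had 9.36 and 8.13 CPM in the romidepsin libraries, 10.4, 14.4 and 13.3 CPM in the saline libraries and 12.3, 9.41 and 11.6 CPM in the wild-type libraries. Both romidepsin libraries were the lowest of the 8. Plk2, the most abundant regulator, had 174 and 177 CPM under romidepsin, 182, 203 and 175 CPM under saline and 185, 177 and 168 CPM in wild type, and its groups overlapped. Arc, the most abundant effector, had 377 and 396 CPM in the romidepsin libraries, 300.4, 477 and 478 CPM in the saline libraries and 462, 399 and 454 CPM in the wild-type libraries. Saline replicate 1 was the lowest of the 8 and the other 2 saline libraries the highest, and the romidepsin libraries lay just below the wild-type range. The plots by library show these members.

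**Figure D2:**
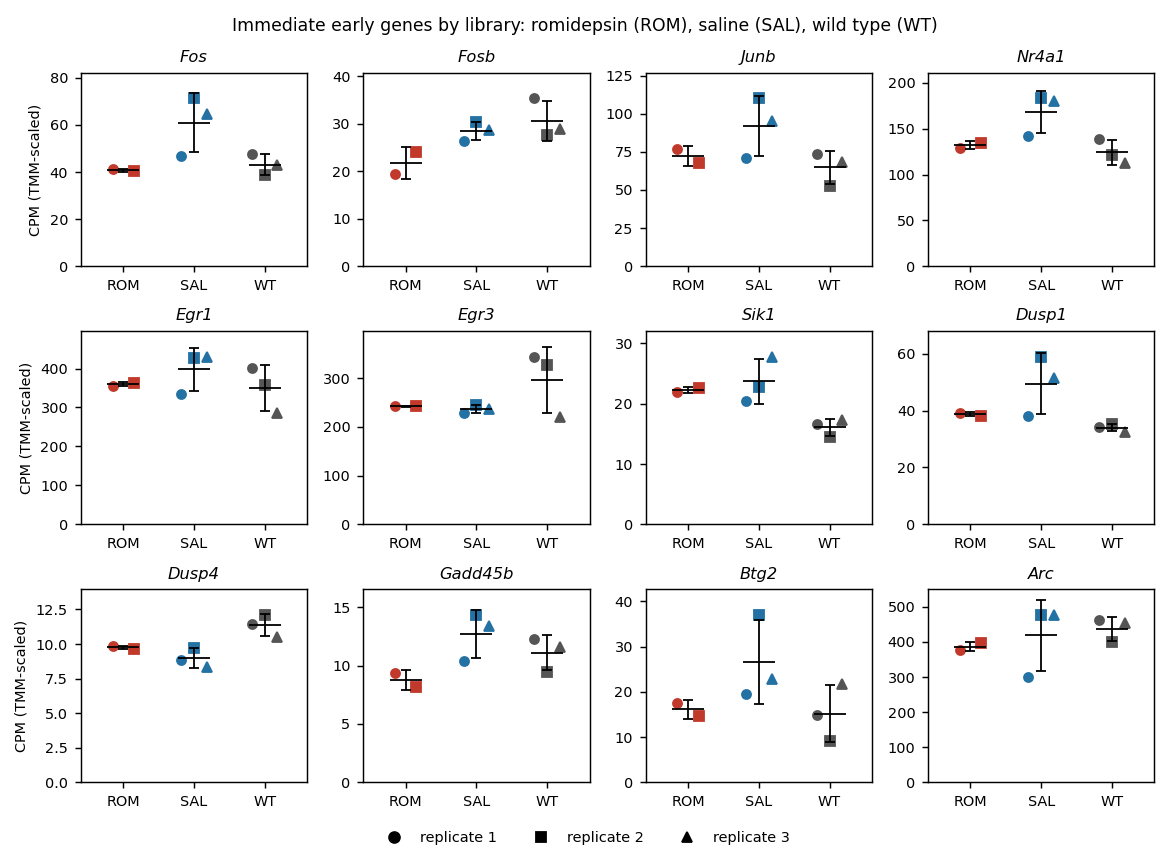
Level (y axis, CPM scaled by TMM, from 0) of 12 immediate early genes in each library, for romidepsin (ROM, n = 2), saline (SAL, n = 3) and wild type (WT, n = 3); symbols are libraries, and lines and bars are means ± SD. Saline replicate 1 (blue circle) sat below the other 2 saline libraries for every gene shown except Dusp4, and for Sik1 all 5 mutant libraries lay above wild type.

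Saline against wild type asks how the Shank3 deletion goes with these transcripts. None of the 40 passed edgeR's quasi-likelihood test after Benjamini-Hochberg adjustment over all 14809 genes, of which 0.00675% passed (1 gene), and the smallest adjusted p of a member was 0.271. At an unadjusted p under 0.05, 8 of the 40 were higher, as were 3.59% of all genes, and 3 were lower, as were 4.8% of all genes. The higher ones were Sik1, Nr4a1, Dusp1, Fos, Egr2, Junb, Ier2 and Btg2, and the lower ones Inhba, Egr3 and Dusp4. Among all members 26 were higher and 14 lower, where 51.3% of all genes were higher and 48.7% lower. The median log2 fold change was 0.10, against 0.0047 over all genes. By role, fast transcription factors were higher in 12 of 17 (median 0.12) and intracellular regulators in 12 of 16 (median 0.14), whereas the effectors were lower in 5 of 7 (median -0.03).

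Sik1 averaged 23.7 ± 3.77 CPM in the saline group and 16.1 ± 1.41 CPM in wild type (SD, n = 3 each). This was 1.46-fold (95% interval 1.20 to 1.76), short of the test (edgeR quasi-likelihood test, adjusted p = 0.271). Nr4a1 stood at 1.35-fold of wild type (1.16 to 1.58; adjusted p = 0.271), Dusp1 at 1.44-fold (1.19 to 1.75; adjusted p = 0.294) and Fos at 1.40-fold (1.15 to 1.71; adjusted p = 0.359) in the same edgeR fit. Egr2, Junb and Ier2, a small nuclear protein, had log2 fold changes of 0.45, 0.50 and 0.52 (SE 0.15, 0.16 and 0.20). The antiproliferative cofactor Btg2 had the highest of the members, 0.79, but with an SE of 0.33. Its saline libraries held 19.6, 37.1 and 23.0 CPM and its wild-type libraries 14.8, 9.11 and 21.7 CPM, which overlap. On the lower side, Inhba had 2.95, 3.46 and 3.08 CPM in the saline libraries against 6.82, 4.07 and 4.63 CPM in the wild-type libraries. All saline values were below all wild-type values (log2 fold change -0.71, SE 0.25). Egr3 stood at 0.798-fold (0.653 to 0.975) and Dusp4 at 0.791-fold (0.640 to 0.977), neither past the adjusted threshold.

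Of the 40 genes, 6 had all saline libraries above all wild-type libraries, as did 6.26% of all genes. Beside Sik1, Nr4a1 and Dusp1 these were Nr4a3, the G protein regulator Rgs2 and the ADP-ribosyltransferase Tiparp, at 1.08-fold, 1.10-fold and 1.13-fold of wild type. In 3 genes all saline libraries were below, as in 6.36% of all genes: Inhba, Dusp4 and the transcription factor Csrnp1 (0.849-fold). Arc was at 0.954-fold (0.760 to 1.20) and the cyclooxygenase Ptgs2 at 0.998-fold (0.839 to 1.19), and Vgf had a log2 fold change of -0.03 (SE 0.10). The neurotrophin Bdnf was at 1.05-fold (0.899 to 1.23). Nptx2, a secreted pentraxin that clusters AMPA receptors, was at 0.832-fold (0.689 to 1.00). DESeq2 called 1 member (Nr4a1, log2 fold change 0.44, adjusted p = 0.0491), where it called 31 of all genes (0.213%), and limma-voom called 0. Without saline replicate 1, edgeR called Dusp1 and Fos (log2 fold changes 0.70 and 0.65, adjusted p = 0.0247 and 0.0415) among 9 genes in all (0.0614%). Without wild-type replicate 3 it called Egr3 and Nptx2 (-0.51 and -0.42, adjusted p = 0.00266 and 0.0451) among 54 genes in all (0.369%).

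Markers of other cell types also differed between these libraries, with no marker of the lists named here at 0 in all of them. Summed levels of 8 olfactory bulb and septum markers were 47.7, 67.9 and 66.2 CPM in the saline libraries, against 30.7, 29.7 and 61.9 CPM in the wild-type libraries. All 7 tested markers of that list were higher in the saline group, 2 of them at an unadjusted p under 0.05. Over all genes 3.59% were higher and 4.8% lower at that p. The 11 endothelial and pericyte markers summed to 318, 238 and 279 CPM in the saline libraries and to 311, 332 and 386 CPM in the wild-type libraries, with 9 lower in the saline group, 6 of them at that p. The 9 meningeal and fibroblast markers summed to 245, 201 and 105 CPM in the saline libraries against 104, 102 and 165 CPM in the wild-type libraries, with all 9 higher in the saline group, 6 of them at that p. Without any at that p, all 7 oligodendrocyte markers were lower and 7 of 8 microglial markers higher. Of the 8 heat shock and handling stress genes, 7 were lower in the saline group (median log2 fold change -0.21), 1 of them at that p. The sums of these 8 overlapped, at 4017, 5236 and 4076 CPM in the saline libraries and 4595, 4942 and 4354 CPM in the wild-type libraries. Wild-type replicate 3, without which Egr3 and Nptx2 were called, had the lowest neuronal sum (6698 CPM, against 8609 and 8073 CPM) and the highest astrocyte sum (7159 CPM, against 5461 and 5531 CPM) of its group. The part of these cell types and stress genes in the immediate early genes was not tested.

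**Figure D3:**
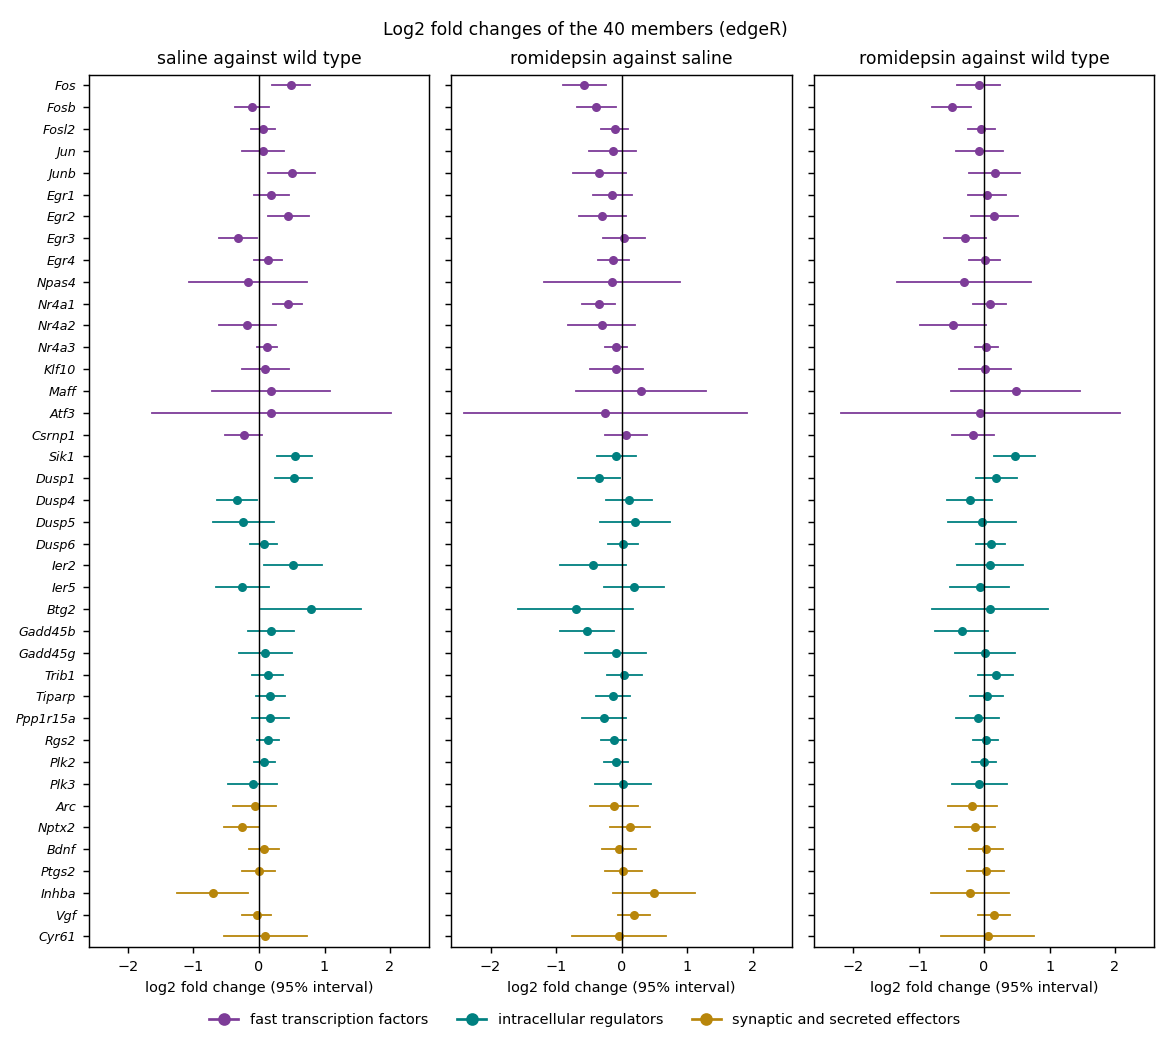
Log2 fold changes (x axis, points) with 95% intervals (lines) of the 40 genes (y axis), coloured by role, in the 3 comparisons; the vertical line is no difference. Sik1, Nr4a1, Dusp1 and Fos lay right of 0 in saline against wild type, and all 5 AP-1 and all 3 Nr4a genes lay left of 0 in romidepsin against saline.

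Romidepsin against saline asks what the drug goes with inside the mutants, and shares its saline libraries with the comparison above. Again no member passed: 0 of the 40, and 0% of all genes, reached an adjusted p under 0.05 in edgeR (adjusted p of 1.00 for every member). DESeq2 and limma-voom called 0 members. At an unadjusted p under 0.05, 5 members were lower, as were 1.53% of all genes, and 0 were higher, as were 1.73% of all genes. They were Fos, Nr4a1, Fosb, Gadd45b and Dusp1. In all, 27 members were lower and 13 higher, where 51% of all genes were lower and 49% higher. The median log2 fold change was -0.09, against -0.0029 over all genes. By role, the fast transcription factors were lower in 14 of 17 (median -0.14), including all 5 AP-1 genes (median -0.34) and all 3 Nr4a genes (median -0.30). The regulators were lower in 10 of 16 (median -0.09) and the effectors in 3 of 7 (median 0.03).

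Fos averaged 40.7 ± 0.668 CPM in the romidepsin group (SD, n = 2) and 60.9 ± 12.5 CPM in the saline group (n = 3). The ratio was 0.673-fold (95% interval 0.536 to 0.845), and Fos ranked 10 of 14809 genes by p. Nr4a1 was at 0.784-fold (0.659 to 0.932), Fosb at 0.765-fold (0.621 to 0.942), Gadd45b at 0.696-fold (0.524 to 0.926) and Dusp1 at 0.790-fold (0.634 to 0.985). Of these, Dusp1 alone overlapped between the groups, since saline replicate 1 lay below both romidepsin libraries. Without that library the log2 fold change of Dusp1 was -0.51, and without saline replicate 2 it was -0.19, against -0.34 with all. Fosb had -0.24 without romidepsin replicate 1, against -0.39 with all. Btg2 had the lowest estimate (-0.70) with an SE of 0.38.

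Both romidepsin libraries lay below all 3 saline libraries for 11 members, as for 10.2% of all genes, and above them for 2 members, as for 10.8%. Beside Fos, Nr4a1, Fosb and Gadd45b, the lower ones were Nr4a2, Nr4a3, Egr4, Btg2, Rgs2, Tiparp and Ppp1r15a, the last a phosphatase subunit that ends the integrated stress response. Those higher were Inhba (3.64 and 5.25 CPM under romidepsin against 2.95, 3.46 and 3.08 CPM under saline) and Vgf (276 and 284 CPM under romidepsin against 234 to 254 CPM under saline). Their log2 fold changes were 0.49 and 0.19 (SE 0.29 and 0.12). Arc was at 0.925-fold (0.716 to 1.20), Bdnf at 0.970-fold (0.810 to 1.16) and Egr3 at 1.02-fold (0.818 to 1.28). The 2 MAP kinase phosphatases Dusp4 and Dusp6 were at 1.09-fold and 1.02-fold. The olfactory bulb and septum markers summed to 29.4 and 31.9 CPM in the romidepsin libraries, below the 3 saline libraries, with all 7 tested markers lower, 4 of them at an unadjusted p under 0.05. Over all genes 1.53% were lower and 1.73% higher at that p. All 11 vessel markers were higher in the romidepsin group (median log2 fold change 0.26; 3 at that p), as were 8 of 9 inhibitory neuron markers (median 0.13; 3 at that p) and 7 of 8 microglial markers (median 0.08; 1 at that p). The inhibitory neuron markers summed to 1104 and 1100 CPM in the romidepsin libraries, against 1027, 940.0 and 1064 CPM in the saline libraries. All 9 meningeal markers (median -0.29) and all 7 oligodendrocyte markers (median -0.19) were lower, 0 of them at that p. Their part in the lower levels of the transcription factors was not tested.

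Romidepsin against wild type compares treated mutants with the littermates, uses no saline library and shares its wild-type and romidepsin libraries with the comparisons above. No member passed edgeR's quasi-likelihood test (smallest adjusted p = 0.999), against 0.00675% of all genes (1 gene), and DESeq2 and limma-voom called 0 members. The members were divided evenly, 21 higher and 19 lower, where 50% of all genes were higher and 50% lower. Their median log2 fold change was 0.01, against 4.2e-05 over all genes. Unadjusted p was under 0.05 for 1 lower member, Fosb (1.78% of all genes were lower at that p), and for 1 higher member, Sik1 (1.46% were higher). Fosb averaged 21.7 ± 3.30 CPM in the romidepsin group (n = 2) and 30.6 ± 4.16 CPM in wild type (n = 3), a ratio of 0.710-fold (95% interval 0.578 to 0.872). Sik1 averaged 22.3 ± 0.543 CPM and 16.1 ± 1.41 CPM in these groups, a ratio of 1.38-fold (1.12 to 1.71).

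Fos, Nr4a1 and Junb in the romidepsin libraries lay within or across the wild-type range, at 0.943-fold (0.752 to 1.18), 1.06-fold (0.893 to 1.26) and 1.12-fold (0.849 to 1.47) of wild type. Each interval includes 1 but is too wide to show equal levels. Nr4a2 was at 0.717-fold (0.506 to 1.02), and without wild-type replicate 3 its log2 fold change was -0.15 in place of -0.48. Egr3 was at 0.817-fold (0.652 to 1.02). Without wild-type replicate 3 it was called, at a log2 fold change of -0.48 (edgeR, adjusted p = 0.0392), as 1 of 2 genes called in all (0.0137%). The groups did not overlap for 3 higher members, Sik1, Trib1 and Dusp1 (9.34% of all genes were higher without overlap), nor for 6 lower members, Fosb, Nr4a2, Gadd45b, Dusp4, Arc and Ppp1r15a (9.08% were lower). Trib1, a pseudokinase scaffold, was at 1.13-fold, and Arc had a log2 fold change of -0.18 (SE 0.17). The highest estimate of the 40 belonged to the sparsely counted Maff, 0.48 with an SE of 0.46.

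Cell type markers also differed between the romidepsin and wild-type libraries. All 9 inhibitory neuron markers were higher in the romidepsin group (median log2 fold change 0.16), 4 of them at an unadjusted p under 0.05, and summed to 1104 and 1100 CPM, against 966, 947 and 1002 CPM in the wild-type libraries. Over all genes 1.46% were higher and 1.78% lower at that p. All 8 microglial markers were higher (median 0.16; 2 at that p), with sums of 531 and 475 CPM in the romidepsin libraries against 380, 417 and 526 CPM in the wild-type libraries. Of the 7 tested olfactory bulb and septum markers 6 were lower and 1 higher (median -0.46), 0 of them at that p. That list summed to 29.4 and 31.9 CPM in the romidepsin libraries, against 30.7, 29.7 and 61.9 CPM in the wild-type libraries. All 9 meningeal markers were higher (median 0.30), and all 7 oligodendrocyte markers (median -0.27) and all 8 heat shock and handling stress genes (median -0.10) lower, 0 of them at that p. Their part in the values of the immediate early genes was not tested.

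Libraries of the same group differed from each other in these genes. Saline replicate 1 was the lowest of the 3 saline libraries for 27 of the 40 members (67.5%), against 29.5% of all genes, and saline replicate 2 the highest for 23 (57.5%), against 36.5%. In wild type, replicate 1 was the highest for 23 members (57.5%, against 33.6%). Romidepsin replicate 1 was the lower of its pair for 26 members (65%, against 51.7%). The median deviation of the members from their mean over the 8 libraries, on the log2 scale, was -0.07 and -0.03 under romidepsin, -0.08, 0.15 and 0.08 under saline and 0.03, -0.04 and -0.08 in wild type. Saline replicates 2 and 3 had the highest of these medians, and saline replicate 1 was among the lowest. For the 17 transcription factors alone, saline replicates 2 and 3 had medians of 0.22 and 0.08 and saline replicate 1 of -0.09. The olfactory bulb and septum sum was highest in saline replicates 2 and 3 (67.9 and 66.2 CPM). Wild-type replicate 3, with a median deviation of -0.08 for the members, followed at 61.9 CPM, then saline replicate 1 at 47.7 CPM. All other libraries held 29.4 to 31.9 CPM. Saline replicate 2 also had the highest share of ribosomal precursor Rn45s (1.12% of reads, against 0.316% to 0.611% elsewhere), the highest heat shock sum (5236 CPM) and the lowest vessel sum (238 CPM). In saline replicate 3 the heat shock sum was low (4076 CPM). Saline replicate 1 had the most reads, and its table alone lacked the counter's summary entries. The part of these features in the order of the libraries was not tested.

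**Figure D4:**
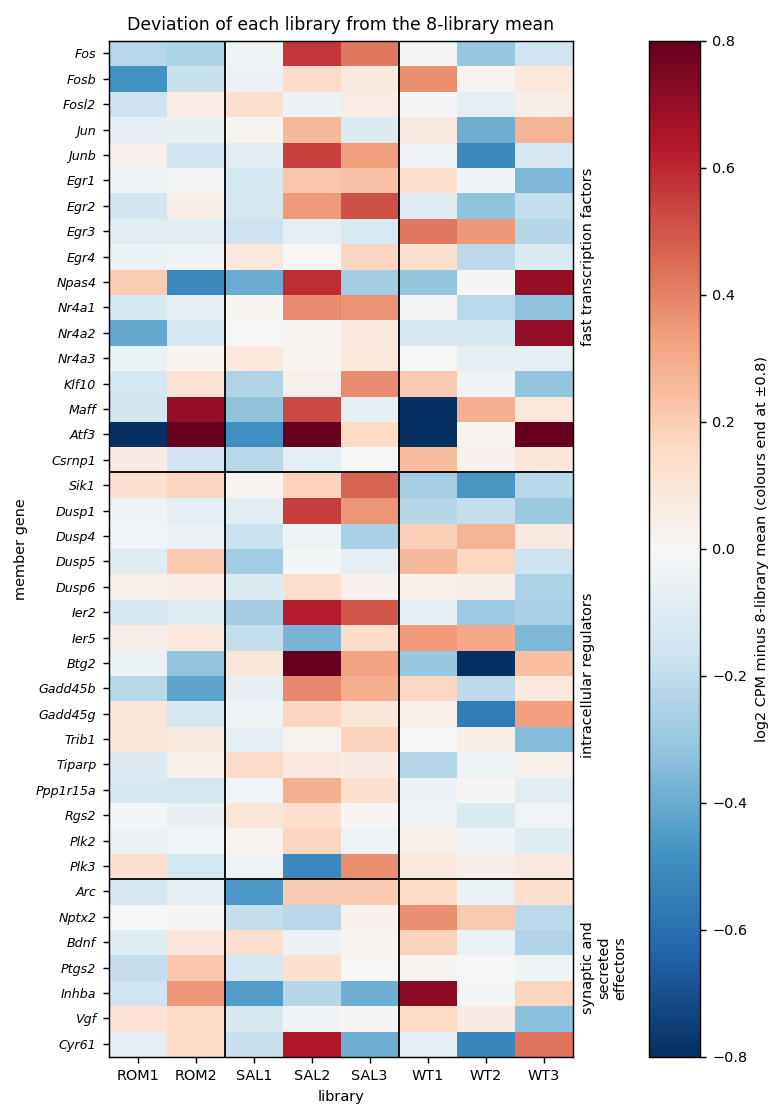
Deviation of each library (x axis; romidepsin ROM, saline SAL, wild type WT) from the mean over all 8 libraries, in log2 CPM (colour, saturated at ±0.8, which some values of Maff, Atf3 and Btg2 pass), for the 40 genes ordered by role (y axis). The column of saline replicate 2 is mostly red among the transcription factors, and those of saline replicate 1 and of the romidepsin libraries hold more blue than red there.

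The spread between replicates was above that of genes at the same level for most of the immediate early genes. Their own biological coefficient of variation, the spread between replicates beyond counting error, had a median of 11.1%, against 9.44% over all genes. It exceeded the trend fitted over all genes at the same level for 27 of the 40 (67.5%), against 36% of all genes. By role this held for 13 of 17 transcription factors, 6 of 7 effectors and 8 of 16 regulators. Npas4, the neuron-specific factor that calcium entry induces, was the most variable relative to level, at 31.5% or 3.57 times the trend. It had 37.0 and 22.4 CPM in the romidepsin libraries, 24.3, 48.5 and 26.4 CPM in the saline libraries and 25.8, 32.3 and 52.3 CPM in the wild-type libraries, with 1 high library in each group. Btg2 followed at 27.4% (2.77 times the trend), then Atf3 at 48.4% (2.12 times), Ier5 at 15.4% (1.96 times) and Junb at 13.6% (1.71 times). The steadiest relative to the trend were Dusp4 (0.748 times), Ppp1r15a (0.779 times), Rgs2 (0.790 times) and Nr4a3 (0.791 times). The highest of the 8 libraries was 1.59 times the lowest at the median of the 39 genes with reads in every library, and at most 4.07 times.

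**Figure D5:**
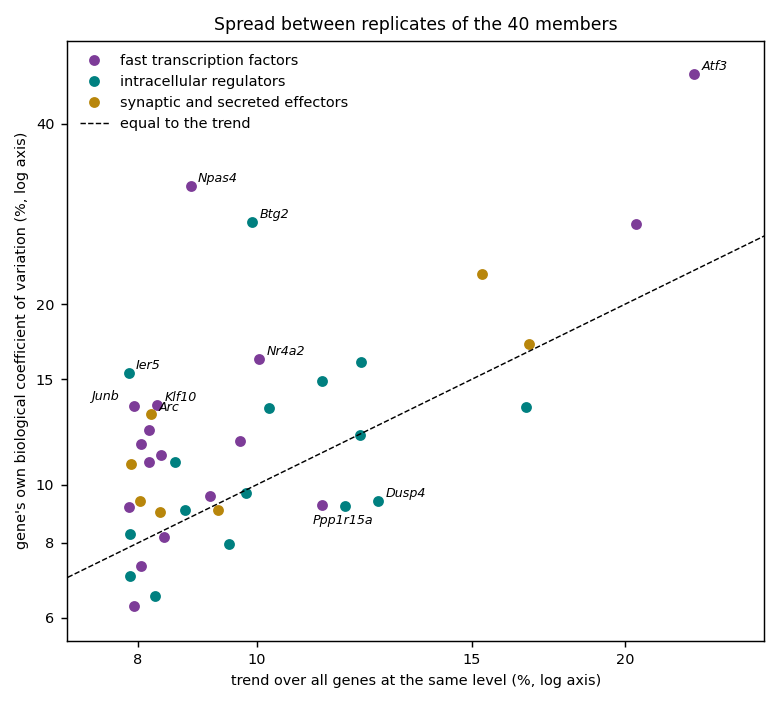
Biological coefficient of variation between replicates of each of the 40 genes (y axis, percent, log axis) against the trend over all genes at the same level (x axis, percent, log axis), coloured by role. Points above the dashed line, 27 of 40, varied more than genes of their level, with Npas4 and Btg2 farthest above it after allowing for level.

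The members not yet described follow. The growth arrest gene Gadd45g and the zinc finger factor Klf10 had log2 fold changes of 0.10 and 0.10 in saline against wild type, with SEs of 0.19 and 0.16. The MAP kinase phosphatases Dusp5 and Dusp6, the kinase Plk3 and the matrix protein gene Cyr61 had -0.24, 0.07, -0.10 and 0.10 in that comparison, and 0.20, 0.03, 0.03 and -0.04 in romidepsin against saline. Ier5, a heat shock regulator, had -0.25 and 0.19, with SEs of 0.18 and 0.20. Maff had 0.19 and 0.29 in the same comparisons, with SEs of 0.42 and 0.46. None of these had an unadjusted p under 0.05 in any comparison.

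Genes around the pathway were read from 2 further lists. The signalling and chromatin list held 36 genes that act before transcription, such as the CREB and serum response factors, MAP kinases and calcium channels. In saline against wild type 13 were higher and 23 lower (median log2 fold change -0.03), with 0 called by edgeR. At an unadjusted p under 0.05, 0 were higher and 2 lower, where 3.59% and 4.8% of all genes were. Those were the kinase Rps6ka3, which phosphorylates CREB, at 87.0 ± 6.51 CPM in the saline group and 103 ± 5.61 CPM in wild type (log2 fold change -0.25), and the SRF partner Elk3 (-0.36), followed by Srf itself (-0.18). In romidepsin against saline 19 were higher and 17 lower, 0 of them at that p (1.73% and 1.53% of all genes), with the SRF coactivator genes Mkl1 and Mkl2 and the acetyltransferase gene Crebbp nearest (0.19, 0.17 and 0.19). In romidepsin against wild type 19 were higher and 17 lower, and Rps6ka3 and Elk3 (-0.24 and -0.46) were the 2 lower at that p (1.78% of all genes), with Crtc2, a CREB coactivator, next (-0.28).

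The other activity-responsive list held 43 genes outside the 40. In saline against wild type 18 were higher and 25 lower (median -0.04), with 0 called by edgeR. The immediate early genes had 26 higher and 14 lower. Both lists were chosen with earlier results of these data known, and the difference between them was not tested. At an unadjusted p under 0.05, 2 of the 43 were higher and 4 lower, where 3.59% and 4.8% of all genes were. The smallest p belonged to the cochaperone Dnajb5 (139 ± 4.29 CPM in the saline group and 172 ± 14.9 CPM in wild type, log2 fold change -0.31), the kinase Pim1 (-0.82) and the perineuronal net proteoglycan Acan (-0.61). In romidepsin against saline 26 were higher and 17 lower (median 0.05), again with 0 called, 1 higher and 1 lower at that p (1.73% and 1.53% of all genes). The antiproliferative gene Btg1 (-0.35), Dnajb5 (0.20) and Pim1 (0.57) came first. In romidepsin against wild type 17 were higher and 26 lower (median -0.03), with 0 called and 0 at that p (1.46% of all genes were higher and 1.78% lower). The clock gene Per1 (0.16), the zinc finger factor Klf4 (-0.52) and the NF-kappaB inhibitor Nfkbid (-0.52) came first.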

How the data were processed

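Poly(A) RNA of mouse prefrontal cortex was sequenced in 8 libraries. The deposited tables, 1 per library, hold raw counts of reads by gene symbol. Per the submitters' processing notes, bcl2fastq 2.17.1.14 made the base calls, TopHat2 2.1.1 aligned reads to mm10/GRCm38, and the authors obtained the counts with HTSeq 0.6.1. The annotation used and the strand setting were not given in the sources used here. Summary entries (5 in each of 7 tables) were removed.

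Counts were tested with edgeR 4.0.16 in R 4.3.3, as a robust quasi-likelihood fit of all 8 libraries with a term per group. TMM scaling and filterByExpr were used (14809 genes tested, 9611 removed). Adjustment was by Benjamini-Hochberg over all genes tested, with a threshold of 0.05. CPM were scaled by TMM, log2 levels used a prior count of 2, and intervals are at 95%. The script was tested on simulated data. Libraries were checked for duplication, and none were alike. Levels per kilobase used exon lengths of the GENCODE M21 basic annotation. A floor of 3 counts stands for 0. Intervals and floors cover counting error or the spread between libraries only.

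Values in every library are given for members among the 5 smallest p of a comparison, for the most abundant of each role and for the AP-1, Egr and Nr4a families. From the other lists the 3 smallest p are named. Other values were chosen after they were seen. The members and lists were chosen with earlier results of these data known, and no list was tested as a set. Alternatives were RLE and upper-quartile scaling, no filter, CPM of at least 1 in 3 libraries, DESeq2 1.42.0, limma-voom (limma 3.58.1), fits of 2 groups, a replicate block, and leaving out each library.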

Additional observations from a re-analysis of the deposited data

How the results depend on the processing

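No member passed with the settings reported, so there was no call to lose. The median log2 fold change over the members moved from its reported value by less than the spread between replicates (0.0857) in all 16 alternatives. That spread is nearly as large as the reported medians of 0.10 and -0.09 and larger than that of 0.01. Staying within it therefore says little about how stable these medians are. With 1 library left out at a time that median ran from 0.06 to 0.14 in saline against wild type, from -0.15 to -0.07 in romidepsin against saline and from -0.05 to 0.04 in romidepsin against wild type. The sign of a member's own estimate was the same in all alternatives for 25, 25 and 18 of the 40 in these comparisons. Members called in saline against wild type were 0 as reported, 1 with DESeq2, and 0 to 2 with a library left out. In romidepsin against wild type they were 0 to 1 with a library left out, and in romidepsin against saline 0 throughout.

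Genes called in saline against wild type were 1 as reported, 12 with no filter on low counts, 31 with DESeq2, 2 with only the groups compared and 1 to 54 with a library left out, the 54 being without wild-type replicate 3. In romidepsin against saline they were 0 as reported, 2 with DESeq2 and 0 to 3 with a library left out. In romidepsin against wild type they were 1 as reported, 0 with upper-quartile scaling, 2 with no filter, 4 with DESeq2, 2 with limma-voom and 0 to 3 with a library left out. The cause of these shifts was not tested.

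The replicate numbers were not taken to pair the samples. Deviations of same-numbered libraries correlated at -0.37, 0.06 and -0.03 between saline and wild type. Libraries of unlike number in these groups ran from -0.33 to 0.45. Same-numbered values were 0.16 and 0.14 between romidepsin and saline, and -0.08 and 0.15 between romidepsin and wild type. With 2 romidepsin libraries, deviations from the group mean mirror each other, so these values are not separate evidence on pairing. With the replicate block, 4, 0 and 0 genes were called in saline against wild type, romidepsin against saline and romidepsin against wild type, and 0 members in each. The 2 romidepsin libraries and the depth of 7783537 to 15156318 reads on genes per library limit what could be seen.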

Other observations

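Members of a family were also compared with each other within each library. The ratios given were chosen after the values were seen and carry no test. Fosb over Fos, in CPM, was 0.471 and 0.599 under romidepsin, 0.562, 0.427 and 0.445 under saline and 0.743, 0.710 and 0.670 in wild type. All 5 mutant libraries lay below all 3 wild-type libraries. Egr1 over Egr3 was 1.47 and 1.50 under romidepsin, 1.46, 1.75 and 1.82 under saline and 1.17, 1.10 and 1.30 in wild type, with the mutants above. That ratio set wild-type replicate 3, which was low in both Egr1 and Egr3, beside the other wild-type libraries. Dusp1 over Dusp4 was 3.99 and 3.95 under romidepsin, 4.29, 6.05 and 6.15 under saline and 2.99, 2.89 and 3.10 in wild type. Dusp1 was higher and Dusp4 lower in all 5 mutant libraries, as given above, so that ratio had to separate them. Nr4a1 over Nr4a3 was 1.72 and 1.72 under romidepsin, 1.73, 2.32 and 2.19 under saline and 1.79, 1.65 and 1.53 in wild type, where wild type overlapped both mutant groups and saline replicate 1 lay barely above the romidepsin libraries. From the 39 members with reads in every library 741 pairs can be formed. Of these, 76 separated the 5 mutant from the 3 wild-type libraries and 178 separated the saline from the wild-type libraries. Such a ratio is therefore not rare among them. Many pairs share a gene, and no share over pairs of all genes was computed, so these counts show nothing particular to the members.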
